A study of Mus musculus with 7 samples.

Results

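Aminoacyl-tRNA synthetases are the enzymes that join each amino acid to its transfer RNA. The genes described here are 37 members listed by name, of 56953 genes in the count files. All 37 passed the filter on low counts, as did 13990 genes in all. By known location, 21 encode cytosolic enzymes, with Gars and Kars supplying mitochondria as well, and 16 encode mitochondrial enzymes. RNA was sequenced from sorted CD45- CD31- cells, a gate against leukocytes and endothelium, of B16 tumours (an established mouse melanoma line) 5 days after treatment. The 3 AAV-iIL12 libraries are from tumours irradiated with 8 Gy in mice that received AAV-iIL12, an adeno-associated virus vector named for interleukin 12. The 4 AAV-iLuc libraries are from mice with the same 8 Gy and the control vector AAV-iLuc. Every mouse was irradiated, so neither group shows the level without radiotherapy. Titles of the AAV-iIL12 libraries also carry the tag WT, those of the AAV-iLuc libraries do not, and the labels give no mouse strain or age. By the series' design text each library stands for a mouse.

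In mammals the cytosol and the mitochondria translate with largely separate sets of synthetases, all encoded in the nucleus. Several cytosolic synthetases are held together in the multi-synthetase complex on the scaffold proteins encoded by Aimp1, Aimp2 and Eef1e1. Wars, the cytosolic tryptophanyl-tRNA synthetase, is known from human cells as a gene induced by interferon gamma. Many cytosolic synthetase genes are also known targets of Atf4, the transcription factor of the integrated stress response, which is switched on when amino acids run short.

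Libraries held between 16356653 and 19080587 counts, and the 37 genes took between 0.421% and 0.446% of them. Levels are given as CPM, counts per 1e6 on library sizes scaled by the TMM method. Summed melanocyte markers ranged from 27845 to 28742 CPM in AAV-iIL12 and from 22839 to 25991 CPM in AAV-iLuc. At the test 3 of 7 were higher, or 42.9%, beside 23.5% of all genes tested. The 12 leukocyte markers summed to between 5.93 and 9.69 CPM in AAV-iIL12. In AAV-iLuc replicate 1 they summed to 14.1 CPM, while no other AAV-iLuc library exceeded 2.27 CPM, and 0 of 4 tested markers passed (edgeR, unadjusted p of 0.0869 to 0.769). Ms4a1 had 0 counts in every library, as had the endothelial markers Emcn, Cdh5 and Cldn5, and all 6 endothelial markers summed to at most 0.609 CPM. The 8 fibroblast and pericyte markers summed to between 43.6 and 117 CPM in AAV-iIL12 and between 63.4 and 230.1 CPM in AAV-iLuc, with 0 of 7 tested passing. In sorted bulk cells, a lower level may come from fewer cells of a type or from less RNA per cell, and these cannot be told apart.

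Wars was the member with the largest rise. It was about 3-fold higher in AAV-iIL12 cells, while the next member, Kars, the lysyl-tRNA synthetase of both compartments, rose by 0.63 on the log2 scale. Of the 37 members, 5 rose, 14 fell and 18 did not pass (edgeR's quasi-likelihood F test, p adjusted by Benjamini-Hochberg over all genes tested, under 0.05). Among all genes tested 47.2% passed, 23.5% higher and 23.7% lower, while 13.5% of the members rose and 37.8% fell. The median log2 fold change of the 37 members was -0.09, and that of all genes tested was -0.01. The groups did not overlap for 24 members, 6 higher and 18 lower in AAV-iIL12, where 52.5% of all genes tested did not overlap, 25.9% higher and 26.7% lower. With library size as the only scaling 4 members rose and 18 fell, and 36.0% of calls over all genes were higher, against 49.8% with TMM.

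**Figure D1:**
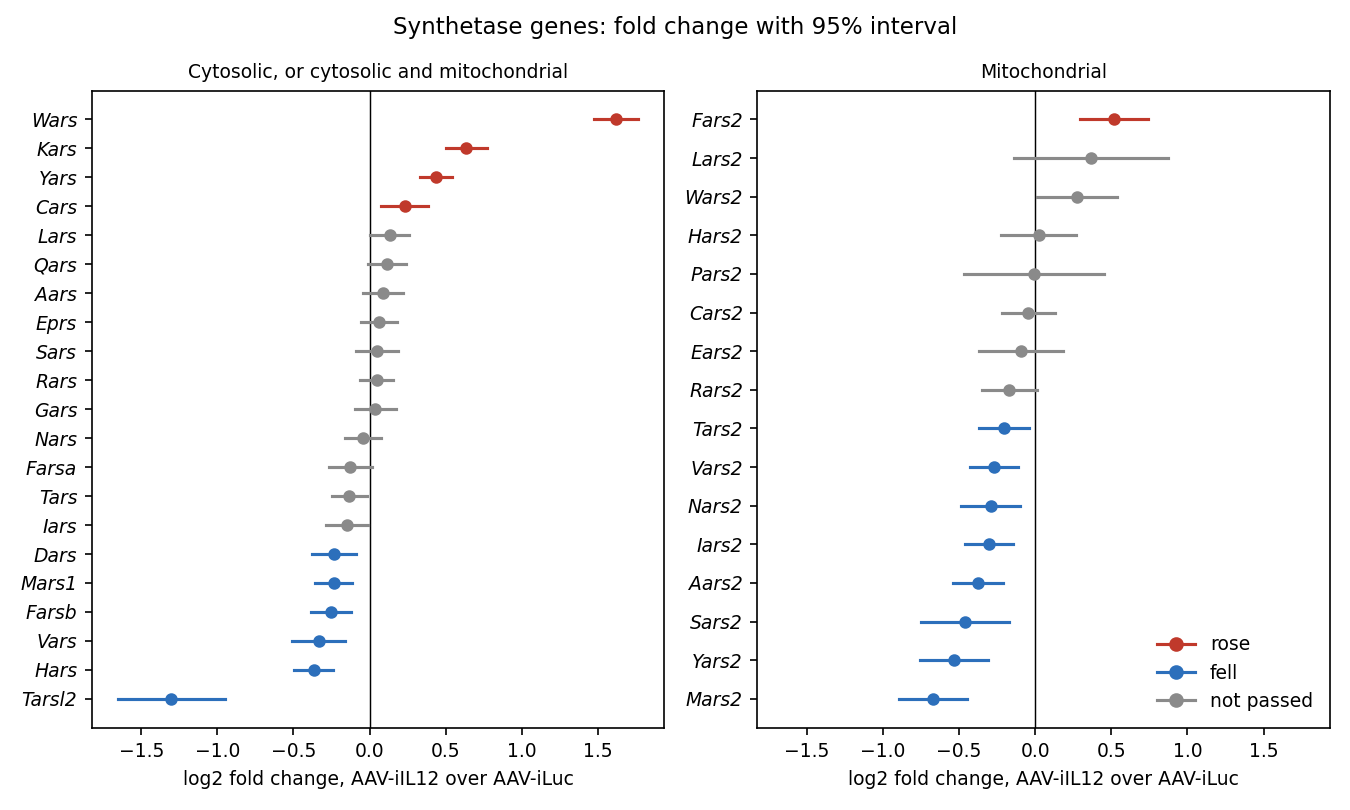
Log2 fold change, AAV-iIL12 over AAV-iLuc, of each of the 37 synthetase genes (points) with its 95% interval (lines), from 3 AAV-iIL12 and 4 AAV-iLuc libraries, and coloured by whether the gene rose, fell or did not pass at an adjusted p of 0.05. Wars stands at 1.62, apart from Kars at 0.63, and most mitochondrial members lie below 0.

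Wars (ENSMUSG00000021266, chromosome 12, 108825956 to 108860100, GRCm39) stood at 476, 424 and 417 CPM in AAV-iIL12, against 149, 141, 146 and 136 CPM in AAV-iLuc. The lowest AAV-iIL12 library was far above the highest AAV-iLuc library, and within each group the libraries lay close together. Its level averaged 439 ± 32.2 CPM in AAV-iIL12, against 143 ± 5.75 CPM in AAV-iLuc (SD, n = 3 and n = 4), a log2 fold change of 1.62 with a 95% interval of 1.48 to 1.76 (edgeR adjusted p = 5.49e-07). In the order of all 13990 genes by log2 fold change Wars ranked 456 from the top. Its interval lay wholly above that of Kars, 0.50 to 0.77, and above those of the other 35 members.

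A ratio taken within a library needs no scaling between libraries. Wars counts were 14.4%, 12.9% and 12.6% of the summed counts of the other 20 cytosolic members in AAV-iIL12, against 4.64%, 4.29%, 4.56% and 4.16% in AAV-iLuc. This ratio to the other members was thus 3.01 times as large in AAV-iIL12 by its means, and the groups lay far apart. No test was run on it, since the genes were listed with results of these data known.

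Wars2 encodes the mitochondrial tryptophanyl-tRNA synthetase. It had 21.02, 19.3 and 20.3 CPM in AAV-iIL12, against 14.0, 19.9, 17.7 and 15.4 CPM in AAV-iLuc. The groups overlapped through AAV-iLuc replicate 2, and the gene did not pass (log2 fold change 0.27, edgeR adjusted p = 0.0778). Without that library it did (0.37, adjusted p = 0.0174), but it did not pass under the other 15 of 16 alternative settings. The count ratio of Wars over Wars2 was 22.7, 21.9 and 20.5 in AAV-iIL12, against 10.7, 7.07, 8.26 and 8.86 in AAV-iLuc.

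**Figure D2:**
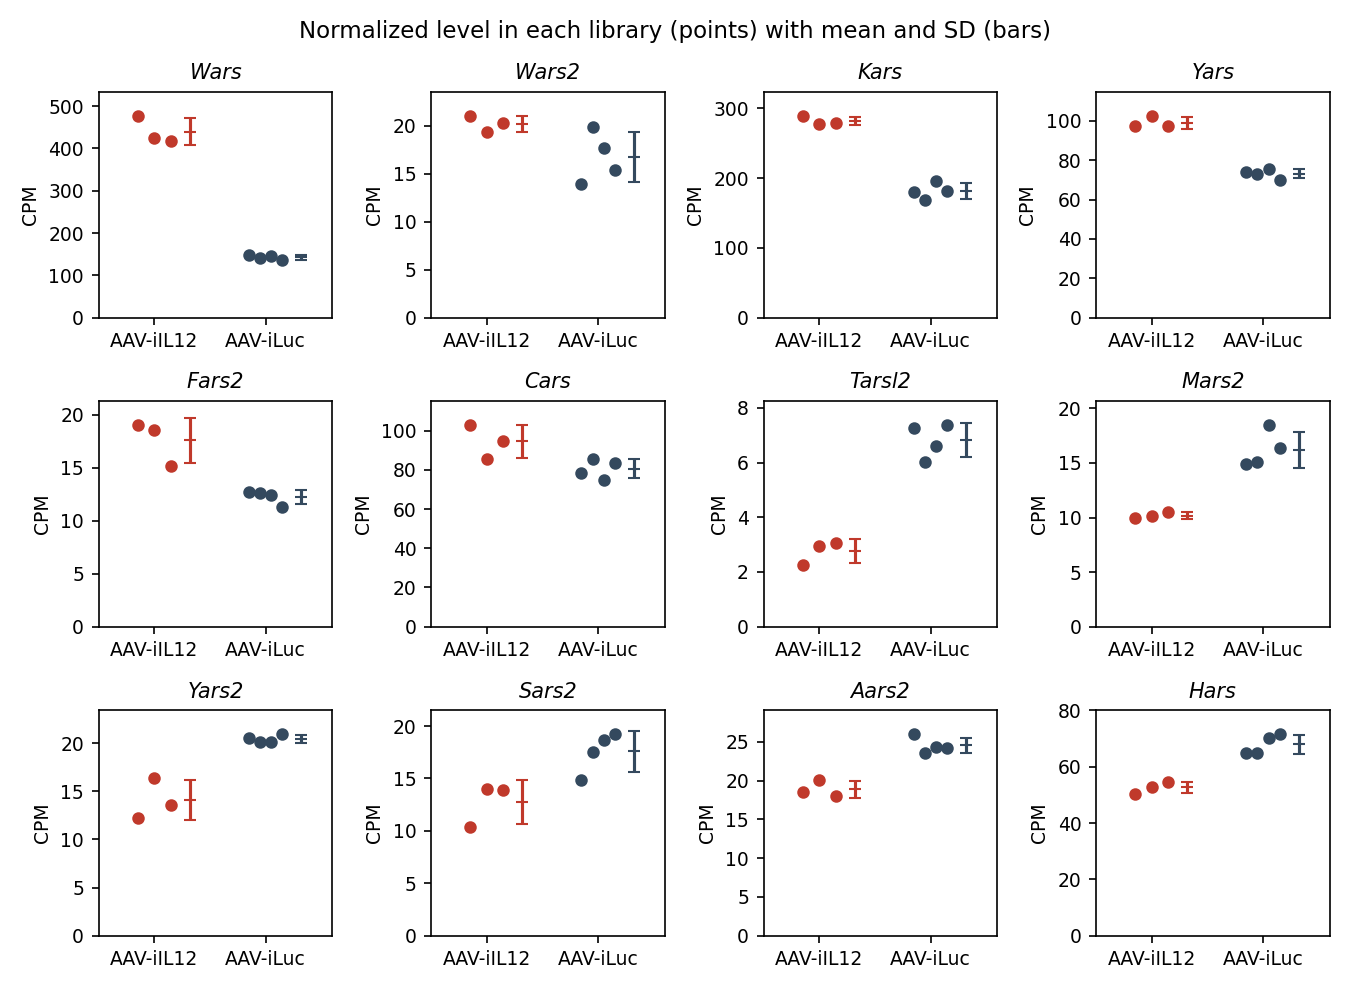
CPM in each library (points) with the group mean and SD (bars) for Wars, Wars2 and the other members with the largest rises and falls, AAV-iIL12 (n = 3) left of AAV-iLuc (n = 4), each axis starting at 0. The groups overlap in the Wars2 panel alone, and AAV-iIL12 lies lower in the panels of Tarsl2, Mars2, Yars2, Sars2, Aars2 and Hars.

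Wars stood beside interferon-response genes that changed far more. Irf1, an interferon-induced transcription factor, had 890.4, 919.9 and 892 CPM in AAV-iIL12, against 121, 24.0, 24.5 and 16.8 CPM in AAV-iLuc. Socs1, an inhibitor of cytokine signalling, Cxcl10, a chemokine, and Cd274, which encodes PD-L1, had log2 fold changes of 4.03, 4.02 and 4.58 (edgeR adjusted p = 2.5e-06, 4.38e-06 and 1.39e-05). Igtp, an interferon-induced GTPase and the most abundant of the list by CPM, averaged 2217 ± 201 CPM in AAV-iIL12, against 53.9 ± 82.2 CPM in AAV-iLuc. All 12 tested genes of a 13-gene interferon gamma list rose, with a median log2 fold change of 4.52, where 23.5% of all genes tested rose. This list was known from earlier results to rise and gives no independent evidence. AAV-iLuc replicate 1 was high for these genes within its group: its CPM was between 1.85 and 20.99 times the mean of the other 3 AAV-iLuc libraries for the 12 genes. For Wars that value was 1.06, and for the other 36 members it lay between 0.79 (Wars2) and 1.51 (Lars2). Without this library the log2 fold change of Wars was 1.64. The same library had the highest leukocyte sum, 14.1 CPM. Its Wars level, 149 CPM, was the highest of the AAV-iLuc libraries and below every AAV-iIL12 library. Whether the leukocyte sum bears on the Wars level was not tested.

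**Figure D3:**
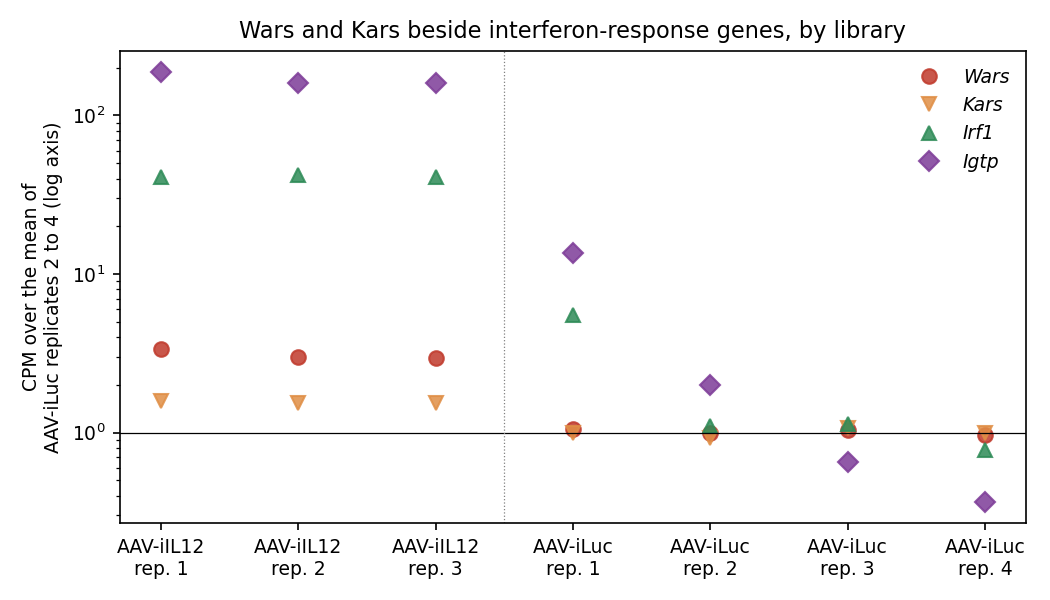
CPM of Wars, Kars, Irf1 and Igtp in each library, divided by the mean of AAV-iLuc replicates 2 to 4, on a log axis. In AAV-iLuc replicate 1 Igtp and Irf1 stand at 13.5 and 5.54 while Wars and Kars stand at 1.06 and 0.99.

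Among the 8 members of the multi-synthetase complex, Kars rose, Dars and Mars1 fell, and Eprs, Iars, Lars, Qars and Rars did not pass. Kars (ENSMUSG00000031948, chromosome 8, 112720075 to 112737955, GRCm39) had 289, 277 and 279 CPM in AAV-iIL12, against 180.3, 169, 196 and 182 CPM in AAV-iLuc. Every AAV-iIL12 library was higher, and the gene passed (log2 fold change 0.63 ± 0.06, SE, edgeR adjusted p = 2.42e-05). Dars, the aspartyl enzyme, averaged 151 ± 13.2 CPM in AAV-iIL12, against 178 ± 4.57 CPM in AAV-iLuc. Mars1, the methionyl enzyme, averaged 58.9 ± 2.30 CPM in AAV-iIL12, against 69.3 ± 2.90 CPM in AAV-iLuc. Both fell by 0.24 on the log2 scale (edgeR adjusted p = 0.0131 and 0.0053).

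Eprs, which carries the glutamyl and prolyl activities in 1 protein, had 454, 444 and 447 CPM in AAV-iIL12, against 441, 441, 421 and 414 CPM in AAV-iLuc. Its libraries did not overlap, yet the difference was small and did not pass (log2 fold change 0.06, 95% interval -0.05 to 0.18, edgeR adjusted p = 0.353). Lars, Qars and Rars, for leucine, glutamine and arginine, had log2 fold changes of 0.13, 0.12 and 0.05, and Iars, for isoleucine, of -0.15. Scaled by library size only or by upper quartile, Iars fell (edgeR adjusted p = 0.0081 and 0.0157). Without AAV-iIL12 replicate 1 Lars rose (0.18, adjusted p = 0.0320).

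The complex's scaffold genes differed among themselves. Aimp1 had 49.7, 52.0 and 49.9 CPM in AAV-iIL12, against 47.9, 47.0, 50.8 and 52.3 CPM in AAV-iLuc, and did not pass (log2 fold change 0.03, edgeR adjusted p = 0.706). Aimp2 had 30.1, 33.1 and 32.4 CPM in AAV-iIL12, against 35.9, 37.9, 40.7 and 41.2 CPM in AAV-iLuc, and fell by 0.29 (adjusted p = 0.00769). Eef1e1 had 19.01, 22.2 and 19.998 CPM in AAV-iIL12, against 28.1, 29.4, 28.8 and 29.5 CPM in AAV-iLuc. It fell by 0.50 with no overlap between groups (adjusted p = 3.59e-04).

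These belong to a list of 14 partners and accessory genes of aminoacylation, of which 1 rose, 5 fell and 8 did not pass (median log2 fold change -0.11). That is 7.14% and 35.7% of the list, beside 23.5% and 23.7% of all genes tested. Dtd1, a deacylase that clears D-amino acids from transfer RNA, rose by 0.36, averaging 23.6 ± 0.99 CPM in AAV-iIL12, against 18.3 ± 0.40 CPM in AAV-iLuc. Xpot, which exports transfer RNA from the nucleus and was the most abundant of the list by CPM, fell by 0.32, with 101 ± 3.75 CPM in AAV-iIL12, against 127 ± 9.45 CPM in AAV-iLuc. Without AAV-iIL12 replicate 3 the genes of this list that fell were 3, and without AAV-iLuc replicate 2 those that rose were 2.

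Outside the complex, Wars, Yars and Cars rose, Farsb, Hars, Tarsl2 and Vars fell, and the other 6 of 13 cytosolic members did not pass. Yars, the tyrosyl-tRNA synthetase, had 97.2, 102 and 97.2 CPM in AAV-iIL12, against 74.1, 72.7, 75.7 and 70.1 CPM in AAV-iLuc. The groups were well apart and tight (log2 fold change 0.44 ± 0.05, SE, edgeR adjusted p = 5.57e-05). Cars, the cysteinyl enzyme, had 103, 85.8 and 94.99 CPM in AAV-iIL12, against 78.4, 85.5, 74.9 and 83.4 CPM in AAV-iLuc. Its lowest AAV-iIL12 library barely cleared the highest AAV-iLuc library, and it rose by 0.23 (adjusted p = 0.0215). Leaving out AAV-iIL12 replicate 1, AAV-iIL12 replicate 3 or AAV-iLuc replicate 3 ended that call (edgeR adjusted p = 0.0797, 0.0637 and 0.0517), as did scaling by library size only (0.123) or by upper quartile (0.0901).

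Tarsl2, a second threonyl-tRNA synthetase gene also called Tars3, fell most. It had 2.25, 2.93 and 3.08 CPM in AAV-iIL12, against 7.28, 6.03, 6.61 and 7.37 CPM in AAV-iLuc. All AAV-iIL12 libraries were below all AAV-iLuc libraries, and the log2 fold change was -1.30 ± 0.16 (SE, edgeR adjusted p = 1.07e-04). It is a scarce transcript, with 37 counts in AAV-iIL12 replicate 1. Tars, the main threonyl enzyme, averaged 116 ± 2.66 CPM (AAV-iIL12) and 127 ± 5.95 CPM (AAV-iLuc) and did not pass (-0.13, adjusted p = 0.0593), though it fell when scaled by library size only or by upper quartile (0.0057 and 0.0088). Tarsl2 counts were 1.98%, 2.55% and 2.58% of Tars counts in AAV-iIL12, against 5.98%, 4.64%, 5.39% and 5.49% in AAV-iLuc.

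Hars, the histidyl enzyme, had 50.4, 52.7 and 54.7 CPM in AAV-iIL12, against 65.0, 64.9, 70.3 and 71.5 CPM in AAV-iLuc, and fell by 0.37 (edgeR adjusted p = 5.68e-04). Vars, the valyl enzyme, averaged 154 ± 13.6 CPM in AAV-iIL12, against 195 ± 14.0 CPM in AAV-iLuc and fell by 0.34. Farsb, the beta subunit of the phenylalanyl enzyme, averaged 99.5 ± 4.55 CPM in AAV-iIL12, against 119 ± 7.13 CPM in AAV-iLuc and fell by 0.25. Farsa, the alpha subunit of the same enzyme, had a log2 fold change of -0.13 that did not pass (adjusted p = 0.133). It fell with library size only (0.0194) and with upper quartile scaling (0.0264). Aars, Gars, Nars and Sars, for alanine, glycine, asparagine and serine, had log2 fold changes between -0.04 and 0.09 that did not pass (adjusted p of 0.255 to 0.649), with 95% intervals that stayed between -0.16 and 0.22.

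Of the 16 mitochondrial members 8 fell, 1 rose and 7 did not pass, so that 50% fell, against 23.7% of all genes tested. The median log2 fold change was -0.19 over these 16 and 0.04 over the 21 cytosolic members. The difference between the compartments was not tested. Mars2, for methionine, had 9.93, 10.1 and 10.5 CPM in AAV-iIL12, against 14.9, 15.1, 18.5 and 16.3 CPM in AAV-iLuc. It fell by 0.67 ± 0.10 on the log2 scale, the largest fall of the mitochondrial members (SE, edgeR adjusted p = 4.13e-04). Yars2, for tyrosine, had 12.2, 16.3 and 13.6 CPM in AAV-iIL12, against 20.5, 20.1, 20.1 and 20.9 CPM in AAV-iLuc. The AAV-iLuc libraries were nearly level, each AAV-iIL12 library lay below them, and the gene fell by 0.54 (adjusted p = 0.00158).

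Sars2, for serine, had 10.4, 14.0 and 13.9 CPM in AAV-iIL12, against 14.9, 17.5, 18.7 and 19.2 CPM in AAV-iLuc, and fell by 0.46 (edgeR adjusted p = 0.0150). Aars2, for alanine, had 18.5, 20.1 and 18.0 CPM in AAV-iIL12, against 26.0, 23.6, 24.3 and 24.3 CPM in AAV-iLuc, and fell by 0.38 (adjusted p = 0.00218). In both genes the groups stayed apart, for Sars2 by less than 1 CPM. Iars2, Nars2, Tars2 and Vars2 fell by between 0.20 and 0.30. The Tars2 call, with an edgeR adjusted p of 0.0399, was lost on leaving out each library except AAV-iLuc replicate 2 (0.0626 to 0.145), with DESeq2 (0.0635) and without the low-count filter (0.0749). Nars2 no longer passed when AAV-iIL12 replicate 1, AAV-iIL12 replicate 3 or AAV-iLuc replicate 1 was left out (0.0587, 0.0584 and 0.0508) or with no low-count filter (0.0538).

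Fars2, the mitochondrial phenylalanyl enzyme, was the mitochondrial member that rose. It had 19.01, 18.5 and 15.2 CPM in AAV-iIL12, against 12.7, 12.6, 12.4 and 11.3 CPM in AAV-iLuc, with no overlap (log2 fold change 0.52 ± 0.10, SE, edgeR adjusted p = 0.00192). Lars2, for leucine, was the most abundant mitochondrial member by CPM and the most uneven. It had 377, 307 and 512 CPM in AAV-iIL12, against 414, 317, 308 and 197 CPM in AAV-iLuc, and did not pass (0.37, 95% interval -0.14 to 0.87, adjusted p = 0.212). Its log2 fold change was 0.15 without AAV-iIL12 replicate 3, 0.20 without AAV-iLuc replicate 4 and 0.55 without AAV-iLuc replicate 1 (edgeR adjusted p = 0.646, 0.4004 and 0.0531). Without the low-count filter it passed (adjusted p = 0.0308). Cars2, Ears2, Hars2, Pars2 and Rars2, for cysteine, glutamate, histidine, proline and arginine, had log2 fold changes between -0.17 and 0.02 that did not pass. Rars2 fell when scaled by library size only or by upper quartile (0.0211 and 0.0316).

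Ratios of a synthetase gene to its mitochondrial counterpart for the same amino acid could be formed for 14 pairs within each library. In AAV-iIL12 7 of these ratios were higher and 2 lower than in AAV-iLuc without overlap, and 5 overlapped. As single genes, 52.5% of all genes tested did not overlap. The share among ratios of other gene pairs was not computed, and a shift of the pairs as a set was not tested. Yars over Yars2 was 7.94, 6.26 and 7.16 in AAV-iIL12, against 3.62, 3.61, 3.77 and 3.35 in AAV-iLuc. Farsb over Fars2 was 4.97, 5.43 and 6.82 in AAV-iIL12, against 9.30, 9.13, 10.4 and 10.01 in AAV-iLuc. In both pairs the members changed in opposite directions. The 15 mitochondrial members other than Lars2 summed to 10.998%, 12.1% and 11.7% of the 20 cytosolic members other than Wars in AAV-iIL12, against 13.6%, 13.7%, 14.6% and 13.8% in AAV-iLuc. Of these 15, Iars2 was by far the most abundant and weighs most in the sum. It averaged 143 ± 13.7 CPM in AAV-iIL12, against 176 ± 7.45 CPM in AAV-iLuc (SD). Leaving out Lars2 was decided after its values were seen. With it the shares were 22.4%, 21.4% and 27.2% in AAV-iIL12, against 26.5%, 23.3%, 24.2% and 19.8% in AAV-iLuc, and the groups overlapped.

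**Figure D4:**
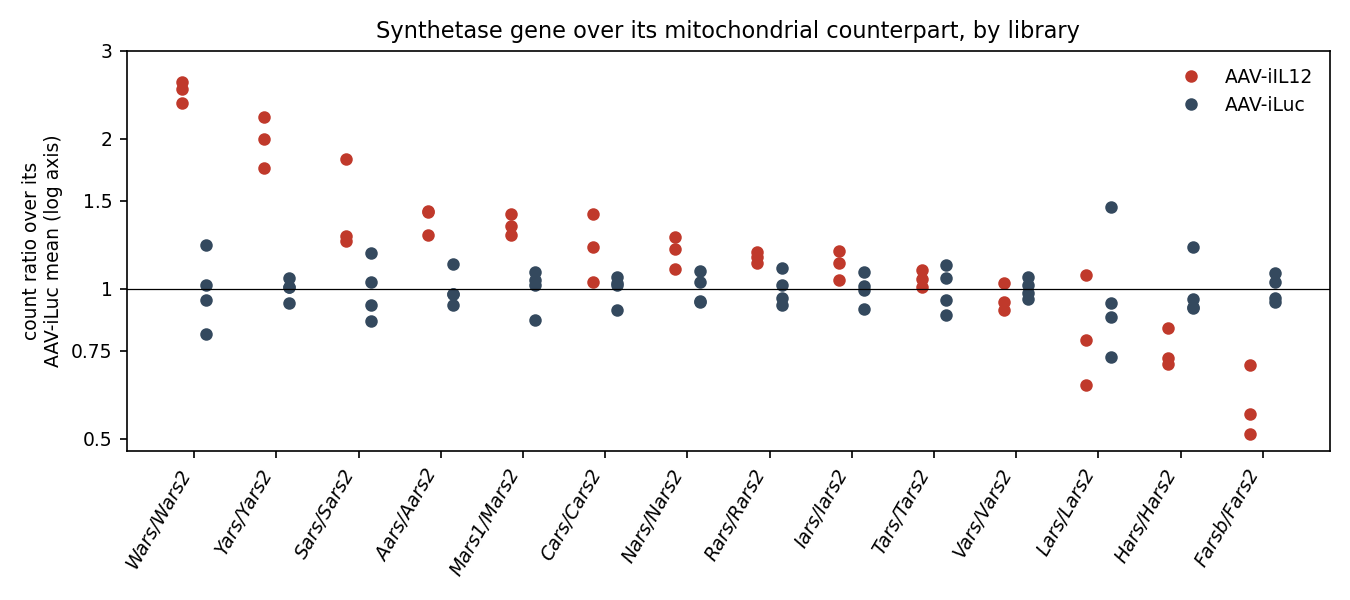
Count ratio of each synthetase gene over its mitochondrial counterpart in every library, divided by the mean ratio of the 4 AAV-iLuc libraries, on a log axis. AAV-iIL12 libraries lie above all AAV-iLuc libraries for 7 pairs, led by Wars over Wars2, and below for Hars over Hars2 and Farsb over Fars2. The share among other gene pairs was not computed.

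Levels can be compared between genes once divided by exon length. As mean CPM per kb of annotated exon, Wars stood first of the 37 in AAV-iIL12 at 127 ± 9.35 (SD) and was sixth of the 37 in AAV-iLuc at 41.5 ± 1.67. Gars, the glycyl enzyme, stood at 121 ± 4.68 CPM per kb in AAV-iIL12 and led in AAV-iLuc with 118 ± 5.61. The ranges of Wars and Gars in AAV-iIL12 overlapped, with libraries between 121 and 138 for Wars and between 117 and 126 for Gars. Both genes were highest in replicate 1 and lowest in replicate 3, and Wars was the higher gene within each library. The difference between the genes was not tested. Gars itself had 394, 372 and 366 CPM in AAV-iIL12, against 365, 367, 349 and 391 CPM in AAV-iLuc. Next came Kars at 63.1 ± 1.36 CPM per kb in AAV-iIL12 and 40.7 ± 2.47 in AAV-iLuc, and Sars at 47.3 ± 1.97 in AAV-iIL12 and 45.7 ± 2.38 in AAV-iLuc. Nars stood second in AAV-iLuc at 46.0 ± 1.51, within the spread of Sars, and at 44.6 ± 1.47 in AAV-iIL12. Apart from Iars2 and Lars2, mitochondrial members stood at most at 8.41 CPM per kb (Vars2 in AAV-iLuc). Exon length is the union over annotated transcripts, so a gene with long rarely used exons has an understated value.

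**Figure D5:**
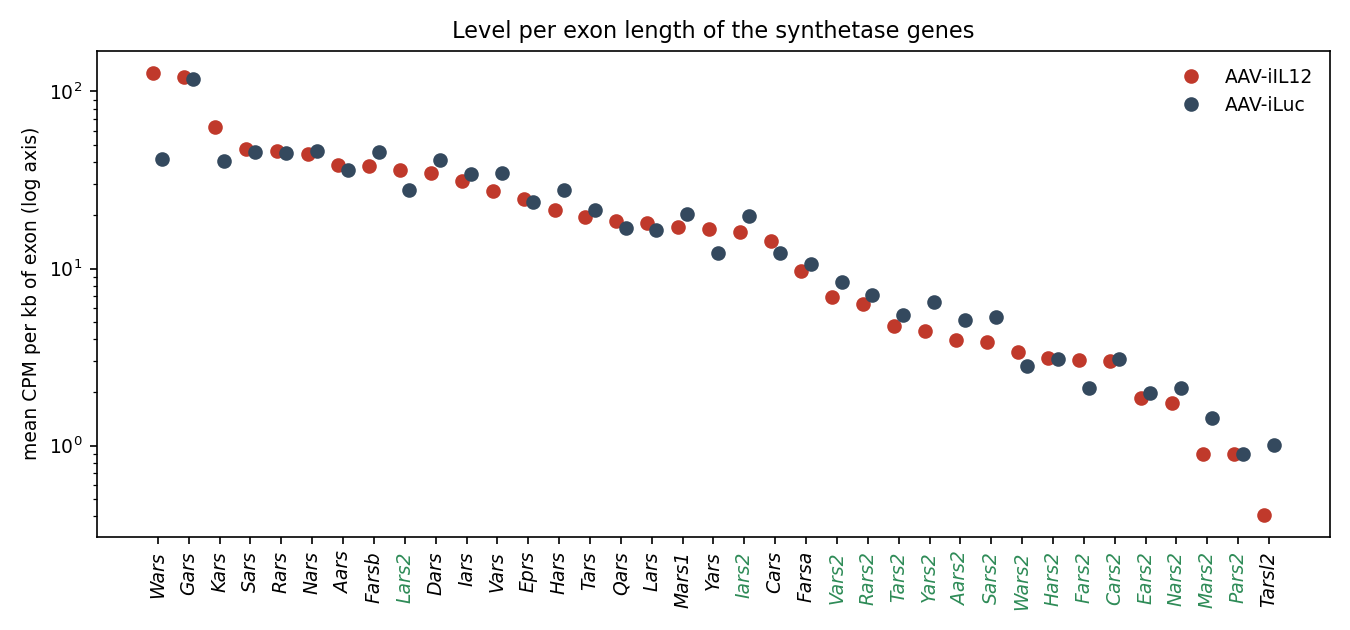
Mean CPM per kb of exon on a log axis for the 37 genes, AAV-iIL12 left of AAV-iLuc at each gene, ordered by the AAV-iIL12 level, with mitochondrial members labelled in green. Wars leads in AAV-iIL12 at 127 and stands sixth in AAV-iLuc at 41.5.

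Short motifs of the stress and interferon responses were looked for in the promoters of the members. RefSeq promoters of 300 bases (build GRCm38.p6, 250 before to 50 after the annotated start) matched 28 of the 37 members with 29 promoters. Cars, Hars, Hars2, Lars, Nars, Pars2, Rars, Vars and Wars were not matched. Each was searched on both strands for the Atf4 element TGATGNAA, the interferon gamma activated site (GAS) TTCNNNGAA and the core of the interferon-stimulated response element (ISRE), GAAA repeated after any 2 bases. The motifs did not overlap each other in any member. The Atf4 element was in 5 of 29 member promoters, all of cytosolic members (Aars, Gars, Iars, Tars and Yars), and in 3.97% of all 32851 promoters. The GAS letters were in 3 (Aars, Kars and Nars2) and in 8.3% of all promoters, and the ISRE core was in 1 (Qars) and in 3.44% of all. A match describes the letters only.

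Shown are Kars and Yars, which rose, beside Aars and Gars, which did not pass. The windows are chr8:112011305-112011604 on the minus strand for Kars, chr4:129189653-129189952 on the plus strand for Yars, chr8:111033592-111033891 on the plus strand for Aars and chr6:55037751-55038050 on the plus strand for Gars. All are written 5′ to 3′ along the gene, the annotated start follows base 250, and capitals mark the motif letters found.
Kars: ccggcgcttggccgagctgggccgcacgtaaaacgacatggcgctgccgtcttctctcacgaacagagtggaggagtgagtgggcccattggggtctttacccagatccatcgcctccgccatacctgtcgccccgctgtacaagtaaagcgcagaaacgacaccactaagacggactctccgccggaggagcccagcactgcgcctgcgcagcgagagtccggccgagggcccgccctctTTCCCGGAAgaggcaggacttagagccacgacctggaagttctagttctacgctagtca
Yars: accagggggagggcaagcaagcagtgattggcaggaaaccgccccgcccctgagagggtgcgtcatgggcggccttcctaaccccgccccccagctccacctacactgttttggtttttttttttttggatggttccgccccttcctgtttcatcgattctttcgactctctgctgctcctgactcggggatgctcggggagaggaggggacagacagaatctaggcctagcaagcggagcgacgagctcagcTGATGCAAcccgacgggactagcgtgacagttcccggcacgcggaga
Aars: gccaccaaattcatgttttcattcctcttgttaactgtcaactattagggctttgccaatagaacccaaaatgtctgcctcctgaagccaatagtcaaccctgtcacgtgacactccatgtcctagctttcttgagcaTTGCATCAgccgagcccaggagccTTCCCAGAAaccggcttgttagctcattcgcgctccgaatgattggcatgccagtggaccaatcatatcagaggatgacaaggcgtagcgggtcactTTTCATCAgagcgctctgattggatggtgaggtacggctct
Gars: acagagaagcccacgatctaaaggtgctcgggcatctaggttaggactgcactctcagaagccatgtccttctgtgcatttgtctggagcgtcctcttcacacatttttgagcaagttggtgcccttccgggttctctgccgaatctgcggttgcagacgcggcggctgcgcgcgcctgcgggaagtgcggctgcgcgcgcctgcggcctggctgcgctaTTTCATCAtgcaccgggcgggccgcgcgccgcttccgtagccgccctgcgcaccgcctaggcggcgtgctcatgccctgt
In Kars the capitals are a GAS match at positions 242 to 250, ending at the last base before the start. In Yars they are an Atf4 element at 254 to 261. Aars holds Atf4 elements at 139 to 146 and at 260 to 267, on the opposite strand, and a GAS match at 163 to 171. Gars holds an Atf4 element at 221 to 228 on the opposite strand.

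Of the 5 members with the Atf4 element, Yars rose and the other 4 did not pass, with log2 fold changes of 0.09 for Aars, 0.04 for Gars, -0.13 for Tars and -0.15 for Iars. Of the 3 with the GAS letters, Kars rose, Nars2 fell and Aars did not pass. Qars, with the ISRE core, did not pass (0.12, edgeR adjusted p = 0.112).

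Atf4 itself had 336, 280.0 and 273 CPM in AAV-iIL12, against 222, 282, 253 and 266 CPM in AAV-iLuc, with overlap, and did not pass (log2 fold change 0.21, edgeR adjusted p = 0.0951). Of 25 tested genes in a list of Atf4 targets and stress regulators 8 rose, 7 fell and 10 did not pass, or 32% and 28%, with a median of 0.05. These shares lie near the 23.5% and 23.7% of all genes tested. Ppp1r15a, which ends the stress response by restoring eIF2 activity, had 130.1, 110.2 and 109 CPM in AAV-iIL12, against 58.1, 66.3, 55.6 and 58.1 CPM in AAV-iLuc, and rose by 0.97 (adjusted p = 1.03e-05). Psat1 and Phgdh, enzymes of serine synthesis, fell by 0.72 and 0.73. Psat1 had 65.1, 69.5 and 71.1 CPM in AAV-iIL12, against 112, 107, 110.01 and 122 CPM in AAV-iLuc. Ddit3, which encodes CHOP, rose by 0.93, and Asns, the asparagine synthetase, stood at 99.0 ± 14.0 CPM in AAV-iIL12, against 96.1 ± 6.32 CPM in AAV-iLuc and did not pass. Ddit3 and Asns were named after their values were seen.

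Of 8 tested genes in a list of 13 for tryptophan supply and breakdown, 1 rose, 2 fell and 5 did not pass. The shares, 12.5% and 25%, stand beside 23.5% and 23.7% of all genes tested. Slc3a2, the heavy chain of amino acid transporters including the tryptophan carrier, rose by 0.48, with 494 ± 54.4 CPM in AAV-iIL12, against 354 ± 33.9 CPM in AAV-iLuc. Its partner Slc7a5 stood at 277 ± 15.2 CPM in AAV-iIL12, against 281 ± 12.9 CPM in AAV-iLuc, did not pass and was named after its values were seen. Slc3a2 and Slc7a5 are also in the list of Atf4 targets and stress regulators, so Slc3a2 is counted as rising in both lists. Slc36a4, an amino acid transporter, fell by 0.24, and Kyat3, a kynurenine aminotransferase, by 0.28. Without any library but AAV-iLuc replicate 2 only 1 fell, and without AAV-iIL12 replicate 1 those that rose were 2. Ido1, the interferon-induced enzyme that breaks down tryptophan, had 34 counts in the AAV-iIL12 libraries and 5 in the AAV-iLuc libraries, too few to pass the filter.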

How the data were processed

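Raw counts per gene, taken as deposited, were available for 3 AAV-iIL12 and 4 AAV-iLuc libraries. Per the file headers, the authors made them with featureCounts 1.6.0, which summed exon reads per gene of GENCODE vM32 in paired, reverse-stranded mode. STAR 2.7.9a, FastQC 0.11.8 and the build GRCm39 are named too, per the submitters' processing notes. Multi-mapping reads were not switched on in that command, so genes with near-identical copies may be undercounted. Every row named a gene. Symbols came from GENCODE vM21 by gene identifier, matching 52029 of 56953 identifiers and 99.4% of counts, and Mars1 was matched through its RefSeq synonym. Coordinates of genes are those of the files, on GRCm39, and those of promoters are RefSeq's, on GRCm38.p6.

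Groups were taken from the treatment labels and compared with edgeR 4.0.16 in R 4.3.3 (quasi-likelihood F test, TMM, filterByExpr), fitted on all 13990 genes passing the filter, with Benjamini-Hochberg adjustment at 0.05 over all of them. CPM used TMM-scaled library sizes. The SE was derived from the F statistic and the 95% interval from it. The test was checked on simulated data in which 200 genes changed, equally many up and down. Data with as large a share of changed genes as here were not simulated. Within each group, counts of every library pair differed beyond sampling noise, and no library was a duplicate. Where nothing but the design text speaks of separate mice, p-values measure the spread between these libraries. The labels give no sequencing batch.

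The members, lists, tests and alternatives were chosen with earlier results of these data known. Values by library are given for Wars, Wars2, the 6 largest rises and 6 largest falls past the threshold (5 members rose), and the most abundant members per exon length. From each list the 3 genes with the smallest p past the threshold and the most abundant gene were named, with Aimp1, Aimp2, Eef1e1, Atf4, Ido1 and Irf1 always, and 1 further gene is not reported here. Other members have means, fold changes or ranges, and Eprs and Lars2 were shown by library, and Ddit3, Asns and Slc7a5 named, after their values were seen. Alternatives were scaling by median of ratios, by library size only or by upper quartile, dropping the low-count filter, requiring 1 CPM in at least 3 libraries, limma-voom (limma 3.58.1), DESeq2 1.42.0, a threshold of 0.01, the replicate number as a block, and each library left out.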

Additional observations from a re-analysis of the deposited data

Results flagged for a closer look

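Of 38 sets of 4 AAV-iLuc values examined, 3 had a library far from the other 3 by Dixon's test, where chance gives about 1 in 20. The sets were the 37 members and the ratio of Wars to the other cytosolic members. Aars stood at 362 CPM in AAV-iLuc replicate 2, against 325 to 332 CPM in the others, and lay within the AAV-iIL12 range of 353 to 363 CPM. Cars2 stood at 20.6 CPM in AAV-iLuc replicate 1, against 22.8 to 23.2 CPM in the others. Farsa stood at 49.7 CPM in AAV-iLuc replicate 4, against 47.6 to 47.8 CPM in the others. Aars, Cars2 and Farsa did not pass the edgeR test, with all libraries or with any library left out.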

How the results depend on the processing

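The Wars rise passed under all 16 alternatives, with log2 fold changes between 1.53 and 1.66, and Wars had the largest log2 fold change of the members in each. The ratio of Wars counts to the summed counts of the other cytosolic members differed by 1.53 to 1.63 on the log2 scale without each library. Members that rose numbered 4 to 6 and those that fell 10 to 18 over all alternatives. Without each library, the partner genes that rose were 1 to 2 and those that fell 3 to 4, and the tryptophan genes that rose were 1 to 2 and those that fell 1 to 2. At a threshold of 0.01, 4 stress genes, 3 partner genes and 1 tryptophan gene fell. Tryptophan genes that fell also numbered 1 with DESeq2, with the replicate block and without the low-count filter, where those that rose were 2. Some values that did not pass changed sign. With library size only, log2 fold changes were -0.0047 for Aars, -0.027 for Eprs, -0.055 for Gars, -0.068 for Hars2, -0.045 for Rars and -0.042 for Sars. With upper quartile scaling they were -0.0091 for Eprs, -0.037 for Gars, -0.049 for Hars2, -0.027 for Rars and -0.024 for Sars, and with the replicate block 0.071 for Pars2. Without each library they lay between -0.089 and 0.0078 for Cars2, between -0.045 and 0.091 for Hars2 and between -0.13 and 0.085 for Pars2. These scalings put the median of all genes at -0.10 and -0.08, against -0.01 with TMM. Other causes were not tested.

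Libraries with the same replicate number in the 2 groups deviated together little, with correlations of 0.0876, 0.0337 and -0.0485. Libraries with different numbers had correlations between -0.108 and 0.0732. The value of replicate 1 was the highest of all, but all were small, so the numbers were not taken as pairs. With the replicate block 2832 genes rose and 2828 fell, 4 members rose and 13 fell, the Wars log2 fold change was 1.59, and the Cars and Tars2 calls ended (edgeR adjusted p = 0.0545 and 0.0636). Depth limits Tarsl2 and Pars2 most. The lowest count was 37 for each, in AAV-iIL12 replicate 1 for Tarsl2 and in AAV-iLuc replicate 2 for Pars2.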
